A study of Mus musculus with 21 samples.

Results

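Id1, Id2, Id3 and Id4 encode the mouse Id proteins, and their transcripts were followed across embryoid bodies that carried TWIST1 alone or TWIST1 in dimer constructs. The members were found by gene symbol, which gave 4 genes of the 48321 symbols in each count table, and all 4 were among the 14311 genes tested. Id proteins have a helix-loop-helix domain but lack the basic region that contacts DNA. They pair with E-proteins, the products of Tcf3, Tcf4 and Tcf12, and so keep these from binding DNA with tissue-specific partners such as TWIST1. In mouse embryonic stem cells the Id genes are known as direct targets of BMP signalling through Smad1, Smad5 and Smad9.

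The samples were bulk RNA-seq libraries of embryoid bodies, which are aggregates of differentiating embryonic stem cells, collected at day 3 from lines of the A2loxCre background (strain label C57BL/6). The 7 groups held 3 samples each. The parental group was A2loxCre cells without a TWIST1 construct, treated with doxycycline. The other lines carried a stably integrated coding sequence behind a doxycycline-inducible promoter, encoding TWIST1 as a monomer, a TWIST1 homodimer, or a dimer of TWIST1 with TCF3, TCF4 or TCF12. Doxycycline was given for 16 hours before collection in every group except the uninduced group, which was the monomer line left without it. No other construct line was sampled without doxycycline. In the dimer groups induction therefore cannot be told apart from differences between the lines. No parental sample was left without doxycycline, so uninduced and parental samples differ in both line and doxycycline. Within the monomer line, induced TWIST1 cannot be told apart from doxycycline itself. The labels do not say whether a line is 1 clone or whether the 3 samples of a group were separate cultures, so the p-values measure the spread between these samples, which may be technical. In RNA from whole embryoid bodies, fewer cells of a type and less RNA per cell cannot be told apart.

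Totals ran from 6648842 to 15999693 counts per library, and 18474 to 20883 genes had a count. At these depths 3 counts corresponded to between 0.182 and 0.488 CPM (counts scaled to a common library total), far below the Id levels, and this floor covers counting error only. Pou5f1, a defining transcript of pluripotent cells, was at 396 to 770 CPM in all 21 libraries, and other pluripotency markers differed between the groups. Twist1 averaged 8.11 CPM in parental, 5.07 in uninduced and 613 in induced monomer samples. It averaged 182 CPM in the homodimer, 55.2 in the TCF3-labelled, 39.4 in the TCF4 dimer and 42.3 in the TCF12-labelled samples. Tcf4 averaged 330 CPM in the TCF4 dimer libraries against 47.5 CPM in parental. The libraries labelled TCF3 dimer were not set apart by Tcf3 (154 against 167 CPM in parental). In the TCF12 dimer libraries, by label, Tcf12 was at 53.2, 118 and 108 CPM, a mean of 93.1 CPM, or 113 CPM without the first. It averaged 104 CPM in those labelled TCF3 dimer and 66.1 CPM in parental, so the order of the 2 labelled groups turned with that library. These groups are therefore called TCF3-labelled and TCF12-labelled.

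Sample 1 of the TCF12-labelled group stood apart from its own replicates, and it touches each Id value of that group. Its genes deviated from the mean of the other 2 samples according to their exonic length, with a Spearman's rho across 13909 genes of -0.575, and the 1502 genes of 1 to 2 kb were higher by a median of 0.70 on the log2 scale. The Id genes of this sample were higher than the other 2 by 1.54 for Id1, 0.73 for Id2, 1.54 for Id3 and 0.76 for Id4 on that scale. The common biological coefficient of variation of the 21 libraries was 0.12, and it was 0.0539 without this library. Its part in the results was not tested, and values without it are given beside the main Id results that it moves.

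**Figure D1:**
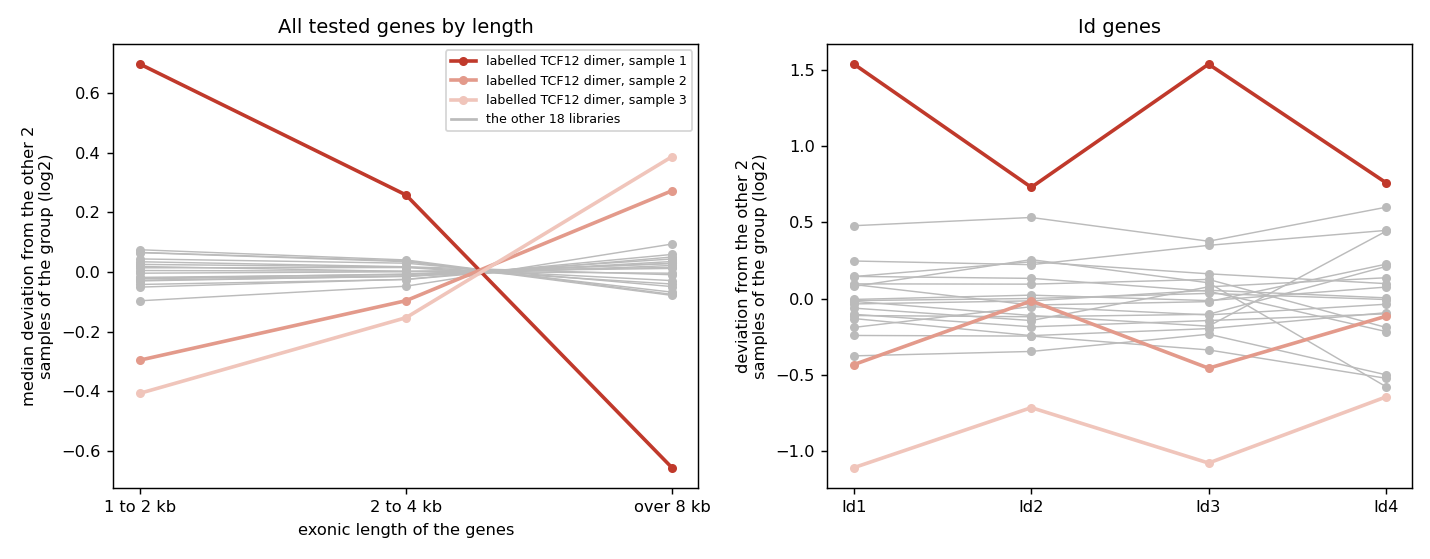
Left, median deviation (log2) of each library from the other 2 samples of its group for genes of 3 classes of exonic length; right, the same deviation for the 4 Id genes. Sample 1 of the TCF12-labelled group lies at 0.70 for genes of 1 to 2 kb, and its Id1 and Id3 deviate by 1.54 each.

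The submitters' processing notes name GRCm38 (mm10), and positions here are from the GENCODE M21 annotation of that build. Id1 lies on the plus strand at chr2:152736251-152737410 with 1.16 kb of exon. Id2 lies on the minus strand at chr12:25093799-25097140 with 2.44 kb of exon. Id3 lies on the plus strand at chr4:136143497-136145755 with 1.79 kb of exon. Id4 lies on the plus strand at chr13:48261228-48266026 with 3.85 kb of exon. All are protein-coding genes, and counts were assigned per gene. Id4 overlaps the antisense gene A330033J07Rik, which had 32 counts over all 21 libraries, and whether the counting used strand is not given in the sources used here.

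Because the Id transcripts moved together in the induced lines, their promoter windows are shown for the E-boxes that TWIST1 and E-proteins recognise and for a GC-rich element of BMP-responsive genes. RefSeq windows of GRCm38.p6, from 250 bases before to 50 bases after the start site, matched 3 of the 4 genes. They cover chr12:25096043-25096342 on the minus strand for Id2, chr4:136143572-136143871 on the plus strand for Id3 and chr13:48260866-48261165 on the plus strand for Id4. Each is written 5′ to 3′ along its gene's strand, and capitals mark any match to CANNTG, the general E-box, or to GGCGCC, the SMAD-associated element.
Id2: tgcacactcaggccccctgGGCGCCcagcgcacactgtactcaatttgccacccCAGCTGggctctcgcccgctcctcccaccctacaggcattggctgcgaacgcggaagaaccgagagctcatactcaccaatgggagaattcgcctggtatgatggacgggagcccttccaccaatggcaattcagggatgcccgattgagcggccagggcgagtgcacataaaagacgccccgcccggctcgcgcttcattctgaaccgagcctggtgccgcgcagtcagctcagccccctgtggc
Id3: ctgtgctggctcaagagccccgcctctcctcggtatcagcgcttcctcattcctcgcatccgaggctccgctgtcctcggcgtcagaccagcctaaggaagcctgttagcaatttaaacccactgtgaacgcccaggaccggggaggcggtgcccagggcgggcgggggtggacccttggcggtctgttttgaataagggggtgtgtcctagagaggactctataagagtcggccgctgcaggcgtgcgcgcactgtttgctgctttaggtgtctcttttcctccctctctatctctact
Id4: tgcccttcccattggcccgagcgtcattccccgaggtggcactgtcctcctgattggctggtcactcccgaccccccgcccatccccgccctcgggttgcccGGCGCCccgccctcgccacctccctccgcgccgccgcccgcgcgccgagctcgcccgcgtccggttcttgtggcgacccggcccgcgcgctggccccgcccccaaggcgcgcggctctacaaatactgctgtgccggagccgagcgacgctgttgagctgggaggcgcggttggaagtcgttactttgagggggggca
The Id2 window held 1 E-box, CAGCTG, whose first base is at -196 from the start site, and 1 GGCGCC at -231. The Id4 window held 1 GGCGCC at -148 and the Id3 window held neither motif. None of the 3 windows held the further forms of the E-box that were searched, which were CATATG as well as CATCTG with its reverse complement CAGATG and also CACCTG with its reverse complement CAGGTG. The palindromic motifs read the same on both strands, and every other motif was searched on both. Of 32851 windows of the same length, 72.3% held CANNTG, 16.3% held CAGCTG and 11.9% held GGCGCC. A match is a description of the letters and no evidence of binding.

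Id1 was at its lowest level in both groups without induced TWIST1 and was higher in all 5 induced groups. In parental samples Id1 was at 32.7, 31.2 and 30.6 CPM, and in the uninduced monomer line it was at 29.1, 31.4 and 27.5 CPM. These groups overlapped. The induced monomer samples were at 74.5, 74.4 and 65.2 CPM, and the homodimer samples at 94.6, 107 and 98.1 CPM. The TCF4 dimer samples were at 270.5, 241 and 216 CPM, and the TCF3-labelled samples at 402, 270.5 and 307 CPM. The TCF12-labelled samples were at 1060.3, 426 and 311 CPM. The groups with an E-protein partner overlapped each other in part and lay above the rest.

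Id2 likewise was lowest in parental and uninduced samples and highest in the groups with an E-protein partner, with the monomer and homodimer means nearly equal. It was at 31.2, 26.2 and 25.8 CPM in parental and at 33.5, 37.5 and 29.9 CPM in uninduced samples. The monomer samples were at 68.7, 64.5 and 64.2 CPM and the homodimer samples at 61.9, 69.7 and 65.0 CPM, which overlap. The TCF4 dimer samples were at 161, 147 and 129.6 CPM. The TCF3-labelled samples were at 255, 169.7 and 183 CPM, and the TCF12-labelled samples at 365, 259 and 187 CPM.

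Id3 differed from Id1 and Id2 in that its level in the uninduced monomer line lay below parental. Parental samples were at 40.8, 35.7 and 40.3 CPM and uninduced samples at 21.2, 22.5 and 19.0 CPM, with no overlap, as for 22.7% of tested genes in this direction. The induced monomer samples, at 45.1, 42.1 and 40.4 CPM, overlapped parental. The homodimer samples were at 87.0, 93.4 and 93.6 CPM. The TCF4 dimer samples were at 168, 142 and 122 CPM, the TCF3-labelled samples at 288, 217 and 226 CPM, and the TCF12-labelled samples at 632, 250.5 and 187 CPM.

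Id4 was the member with the fewest counts. It was at 2.18, 3.79 and 3.23 CPM in parental, at 2.77, 2.93 and 2.64 CPM in uninduced and at 3.07, 3.83 and 3.33 CPM in induced monomer samples. Parental samples overlapped both monomer-line groups. The induced monomer samples lay above the uninduced ones without overlap, as for 10.9% of tested genes in this direction. Homodimer samples were at 8.31, 6.73 and 7.51 CPM. The TCF4 dimer samples were at 18.5, 15.5 and 11.6 CPM. The TCF3-labelled samples were at 38.2, 22.8 and 27.5 CPM, and the TCF12-labelled samples at 39.8, 26.3 and 20.5 CPM.

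**Figure D2:**
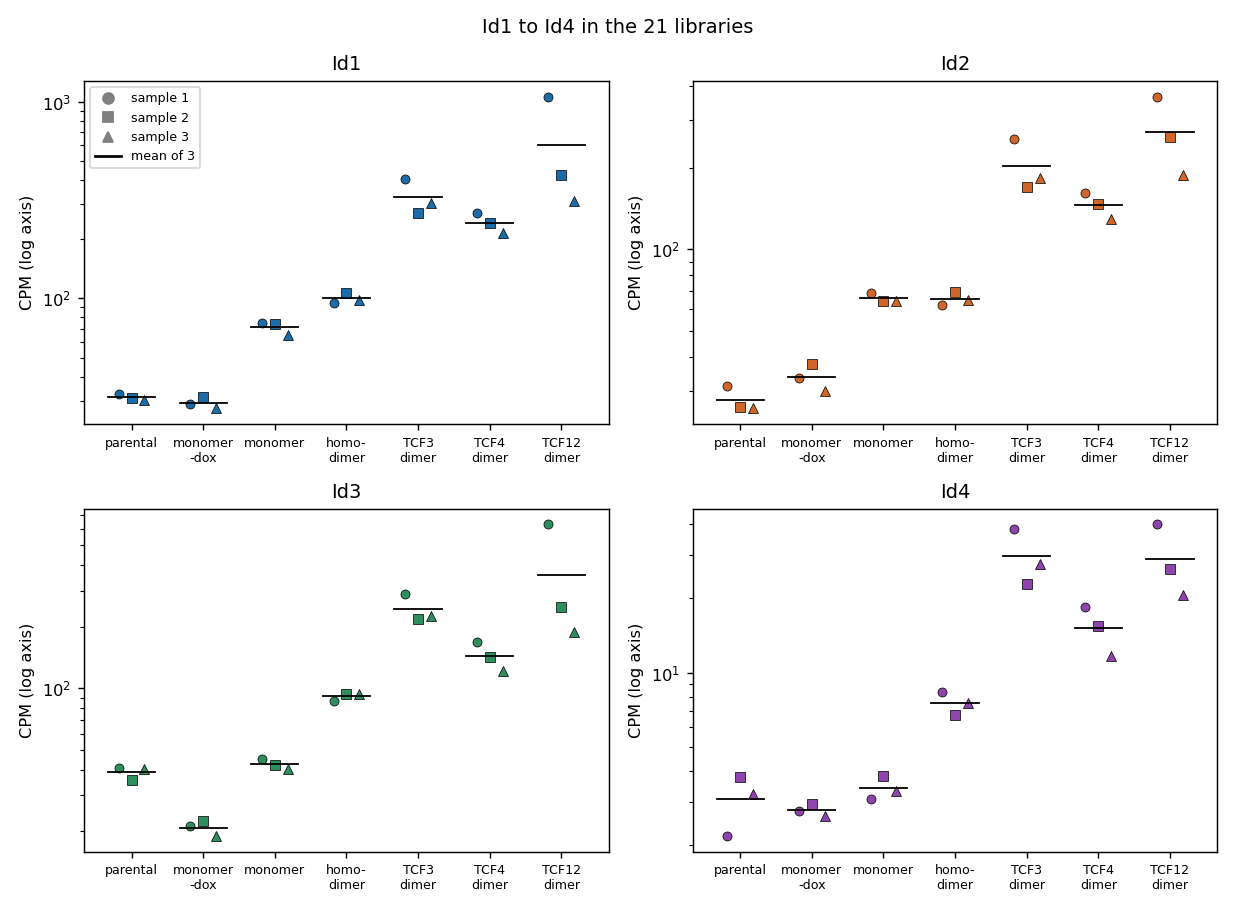
CPM of Id1, Id2, Id3 and Id4 (log axis) in each of the 21 libraries, with a line at the mean of each group of 3. All 4 genes are highest in the 3 groups whose construct has an E-protein partner, and Id1 in the TCF12-labelled group spreads from 311 to 1060.3 CPM.

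Against parental, all 4 Id genes were higher with the homodimer and in each of the 3 groups given an E-protein partner. With the monomer Id1 and Id2 were higher. In the homodimer group Id1 was 3.17-fold, Id2 2.36-fold, Id3 2.35-fold and Id4 2.43-fold higher, with log2 fold changes of 1.66 ± 0.30, 1.24 ± 0.19, 1.23 ± 0.29 and 1.28 ± 0.30 (standard error, n = 3 per group). Their adjusted p-values in edgeR's quasi-likelihood test were 0.000914, 0.00022, 0.00977 and 0.00943. In that comparison 4.81% of all tested genes were called higher. The call for Id4 was lost without parental sample 1 (adjusted p = 0.0593) and that for Id3 without parental sample 2 (adjusted p = 0.051).

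With the TCF4 dimer Id1 was 7.69-fold, Id2 5.25-fold, Id3 3.70-fold and Id4 4.91-fold higher than in parental, and the log2 fold changes were 2.94 ± 0.31, 2.39 ± 0.20, 1.89 ± 0.29 and 2.29 ± 0.28. The largest of the 4 adjusted p-values in edgeR's test was 0.000161, and 7.18% of tested genes were called higher. In the TCF3-labelled group Id1 was 10.4-fold, Id2 7.30-fold, Id3 6.26-fold and Id4 9.57-fold higher. The log2 fold changes there were 3.37 ± 0.31, 2.87 ± 0.20, 2.65 ± 0.30 and 3.26 ± 0.27, all with an adjusted p of at most 1.73e-06 in edgeR's test, where 16.3% of tested genes were called higher.

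In the TCF12-labelled group Id1 was 19.0-fold, Id2 9.73-fold, Id3 9.15-fold and Id4 9.31-fold higher than in parental. All 4 were called (largest adjusted p = 2.72e-07 in edgeR's test), as were 15.5% of tested genes in the higher direction. Without sample 1 of that group Id1 was 11.7-fold, Id2 8.02-fold, Id3 5.61-fold and Id4 7.58-fold higher, again all called. The median log2 fold change of the 4 Id genes against parental was 1.26 with the homodimer, 2.34 with the TCF4 dimer, 3.06 in the TCF3-labelled and 3.25 in the TCF12-labelled group. Over all tested genes the medians were 0.000559, 0.00453, 0.0131 and 0.0244. These comparisons share the parental samples.

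The monomer line allowed samples with and without doxycycline to be compared within 1 line. Induced TWIST1 and doxycycline itself cannot be told apart there. With doxycycline Id1 was 2.43-fold higher (log2 fold change 1.28 ± 0.30, adjusted p = 0.0309) and Id2 was 1.96-fold higher (0.97 ± 0.19, adjusted p = 0.00785) by edgeR's test. Only 1.52% of tested genes were called higher there. Id3 was at 42.5 ± 2.36 against 20.9 ± 1.78 CPM (SD, n = 3), a log2 difference of 1.03 ± 0.31 that did not pass (adjusted p = 0.127) although the groups did not overlap (true of 10.9% of tested genes in this direction). It passed in DESeq2 (adjusted p = 0.0221) and in edgeR without sample 1 of the TCF12-labelled group (adjusted p = 9.11e-06). Id4 did not pass, with a log2 difference of 0.30 and a 95% interval from -0.47 to 1.06. The call for Id1 was lost when any of the 6 monomer-line samples was left out, and that for Id2 without uninduced sample 3.

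Without doxycycline the monomer line differed from doxycycline-treated parental samples at Id3. Line and doxycycline cannot be told apart in this comparison. Id3 was lower by 0.90 ± 0.31 on the log2 scale, with an adjusted p of 0.0499 in edgeR's test, while 9.43% of tested genes were called lower. This call was lost when any 1 of 18 libraries was left out and held without any 1 of the 3 TCF12-labelled libraries. None of the 4 Id genes was called higher, against 10.5% of tested genes, and Id1, Id2 and Id4 did not pass in either direction (log2 differences of -0.10, 0.28 and -0.15). Against parental, the induced monomer samples were 2.27-fold higher for Id1 (adjusted p = 0.00786 in edgeR's test) and 2.37-fold higher for Id2 (adjusted p = 0.000102), with 10.8% of tested genes called higher. Id3 and Id4 differed from parental by 0.13 and 0.15 on the log2 scale, with 95% intervals from -0.51 to 0.77 and from -0.59 to 0.89. The Id3 mean of the induced monomer was thus near parental and above its own uninduced line, and neither difference was called.

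With the uninduced line in place of parental as the control, all 4 Id genes were called higher in the homodimer group, where 11.2% of tested genes were, and in the TCF4 dimer group, where 16.8% were. The same held for the TCF3-labelled group (15.7% of tested genes) and the TCF12-labelled group (20% of tested genes). On the log2 scale Id3 was then higher by 2.13 ± 0.31 with the homodimer, 2.79 ± 0.31 with the TCF4 dimer and 3.55 ± 0.32 in the TCF3-labelled group. With parental as the control these differences were 1.23, 1.89 and 2.65.

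Between the homodimer and the monomer Id3 and Id4 were called, and Id1 and Id2 were not. Id3 was 2.15-fold higher with the homodimer (1.10 ± 0.29 on the log2 scale, adjusted p = 0.0112) and Id4 was 2.19-fold higher (1.13 ± 0.30, adjusted p = 0.0115) in edgeR's test, in which 9.15% of tested genes were called higher. Id1 was 1.40-fold higher without passing (adjusted p = 0.295), although its samples did not overlap (true of 22.5% of tested genes in this direction), and it passed when sample 1 of the TCF12-labelled group was left out of the fit (adjusted p = 0.00108). The difference for Id2 was -0.005 on the log2 scale with a 95% interval from -0.40 to 0.39. Twist1 was lower in the homodimer than in the monomer samples, by 1.75 on the log2 scale.

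**Figure D3:**
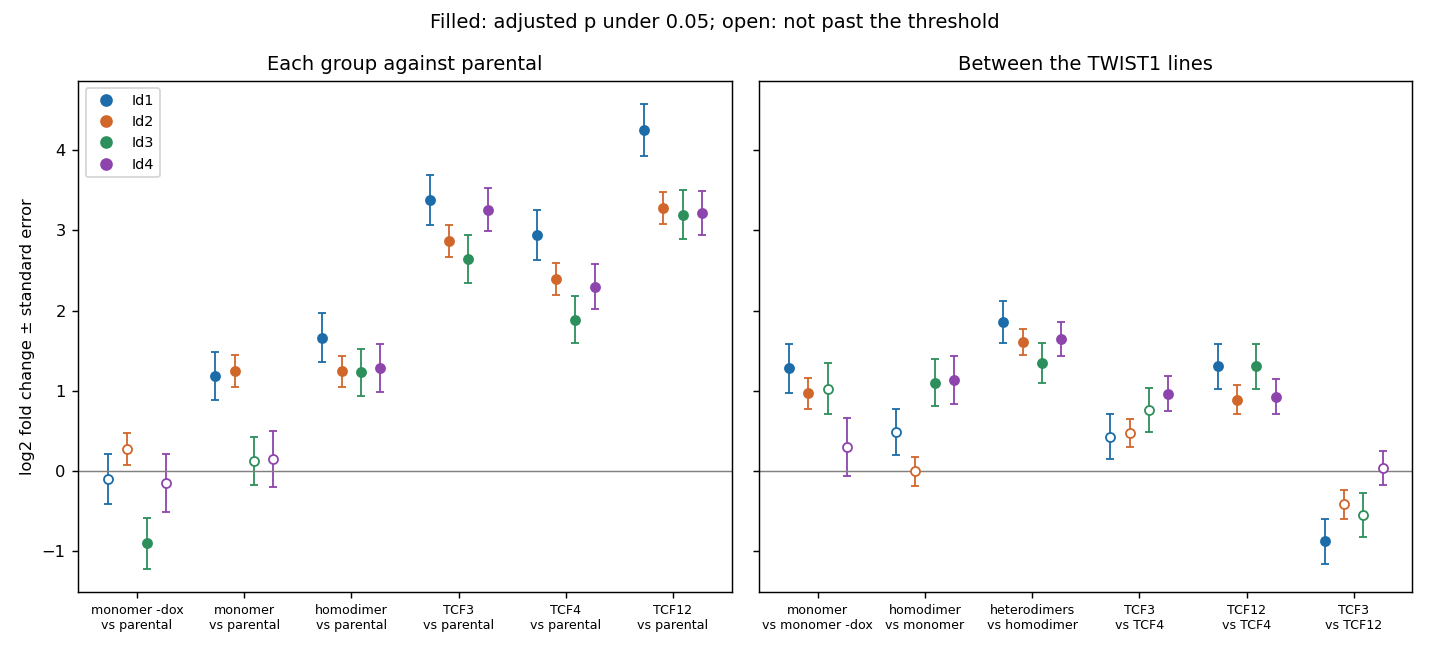
Log2 fold change and standard error of Id1, Id2, Id3 and Id4, against parental (left) and between the TWIST1 lines (right); filled points passed an adjusted p of 0.05 in edgeR's test. Id1 reaches 4.25 in the TCF12-labelled group, and Id2 lies at -0.005 between homodimer and monomer.

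The 3 groups with an E-protein partner, averaged with equal weight, were higher than the homodimer for every Id gene. Id1 was 3.62-fold, Id2 3.05-fold, Id3 2.54-fold and Id4 3.12-fold higher, with log2 fold changes of 1.86 ± 0.26, 1.61 ± 0.16, 1.34 ± 0.25 and 1.64 ± 0.21. The largest adjusted p was 0.000783 in edgeR's test, and 7.99% of tested genes were called higher. For all 4 genes the 9 samples with an E-protein partner lay above the 3 homodimer samples, as they did for 5.07% of tested genes. Without sample 1 of the TCF12-labelled group these changes were 1.62, 1.51, 1.10 and 1.54, and all 4 were called.

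Each partner was also set against the homodimer and against the monomer on its own. All 4 genes were higher than with the homodimer in the TCF3-labelled group (13.6% of tested genes) and in the TCF12-labelled group (8.6% of tested genes). With the TCF4 dimer Id1, Id2 and Id4 were higher (adjusted p = 0.00859, 0.000474 and 0.0154 in edgeR's test; 3.13% of tested genes). Id3 was 1.57-fold higher there without passing (adjusted p = 0.232), and it passed without sample 1 of the TCF12-labelled group (adjusted p = 1.68e-05). Against the monomer all 4 were higher in the TCF3-labelled group (12.7% of tested genes), with the TCF4 dimer (14.5%) and in the TCF12-labelled group (18.1%). The change against the monomer was largest for Id4 in the TCF3-labelled and TCF4 dimer groups, at 8.63-fold and 4.42-fold, and smallest for Id2, at 3.08-fold and 2.22-fold. In the TCF12-labelled group Id1, Id3 and Id4 were 8.39-fold, 8.37-fold and 8.39-fold above the monomer, and Id2 was 4.10-fold above it. Without its sample 1 these were 5.19-fold for Id1, 5.18-fold for Id3, 6.88-fold for Id4 and 3.40-fold for Id2, all called.

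Among the groups with an E-protein partner the order of the means was TCF12-labelled, TCF3-labelled and TCF4 dimer for Id1, Id2 and Id3. For Id4 the TCF3-labelled mean was 29.5 ± 7.90 CPM and the TCF12-labelled mean 28.9 ± 9.88 CPM (SD, n = 3), which overlapped. Between the TCF3-labelled and TCF4 dimer groups Id4 differed, by 1.95-fold (0.96 ± 0.22 on the log2 scale, adjusted p = 0.00356 in edgeR's test), where 11.8% of tested genes were called higher. Id1, Id2 and Id3 were higher by 0.43, 0.48 and 0.76 on the log2 scale without passing (adjusted p = 0.321, 0.0693 and 0.0619). All 4 passed without sample 1 of the TCF12-labelled group.

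Between the TCF12-labelled and TCF4 dimer groups all 4 Id genes were called higher, by 2.47-fold for Id1, 1.85-fold for Id2, 2.48-fold for Id3 and 1.90-fold for Id4. Their adjusted p-values were 0.0194, 0.0137, 0.0191 and 0.0279 in edgeR's test, against 2.07% of tested genes called higher. Without sample 1 of the TCF12-labelled group the 4 differences were close to each other, at 1.52-fold for Id1, 1.53-fold for Id2, 1.52-fold for Id3 and 1.56-fold for Id4, and all 4 were called. All 4 calls were lost without TCF4 dimer sample 2 or sample 3, with adjusted p-values of up to 0.163, and in a fit of these 6 samples alone (adjusted p = 0.63).

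Between the TCF3-labelled and TCF12-labelled groups Id1 was called and the other 3 members were not. Id1 was lower in the TCF3-labelled group by 0.87 ± 0.28 on the log2 scale (adjusted p = 0.0356 in edgeR's test; 9.06% of tested genes were called lower), but the samples of both groups overlapped. The call was lost without TCF3-labelled sample 2 or 3 (adjusted p = 0.121 for each) and without TCF4 dimer sample 2 (adjusted p = 0.051). Without sample 1 of the TCF12-labelled group the TCF12-labelled mean was higher for Id1 by 0.18, with a 95% interval from -0.04 to 0.40 (adjusted p = 0.227). For Id3 that group was then lower by 0.15, with an interval from -0.36 to 0.07, and for Id4 it was lower by 0.33 (adjusted p = 0.116).

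Placed in order of their means, the 7 groups formed steps that differed between the members. For Id1 the uninduced and parental groups were neighbours whose difference was not called (adjusted p = 0.871), nor was that of monomer and homodimer (0.295) or of TCF4 dimer and TCF3-labelled (0.321), all in edgeR's test. For Id2 the steps from parental to uninduced (adjusted p = 0.389), homodimer to monomer (0.992), TCF4 dimer to TCF3-labelled (0.0693) and TCF3-labelled to TCF12-labelled (0.104) were not called. For Id3 the step from parental to monomer was not called (0.841), nor was any step from the homodimer upward (adjusted p = 0.232, 0.0619 and 0.159). For Id4 the steps from uninduced to parental and from parental to monomer were not called (adjusted p = 0.838 and 0.839). Above them each step passed up to the TCF12-labelled group.

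Levels of different genes were compared per kilobase of exon. Id1 was the most abundant member in every group on this scale, at 27.2 ± 0.94 CPM per kb in parental and 281 ± 58.5 CPM per kb in the TCF3-labelled group. Id3 was at 21.7 ± 1.57 and 136 ± 21.5, Id2 at 11.4 ± 1.22 and 83.1 ± 18.9, and Id4 at 0.797 ± 0.213 and 7.66 ± 2.05 CPM per kb (SD, n = 3). Id4 made up between 0.785% and 1.49% of the summed Id transcripts in the group means, so the sum was set by the other 3.

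The sum of the 4 Id genes was 61.1 ± 2.94 CPM per kb in parental, 51.5 ± 4.23 in uninduced, 113 ± 6.42 in monomer and 166 ± 8.33 in homodimer samples. It was 353 ± 43.8 with the TCF4 dimer, 508 ± 101 in the TCF3-labelled and 834 ± 520 in the TCF12-labelled group, where its lowest sample was at 455 and its highest at 1427. Without sample 1 the TCF12-labelled mean was 537, close to the TCF3-labelled one. The makeup of this sum also shifted. Id1 made up 44.5 ± 1.25% of it in parental and 59.2 ± 0.66% with the TCF4 dimer, with no overlap. Id3 made up 35.6 ± 1.66% in parental, 22.6 ± 0.32% in uninduced, 20.99 ± 0.49% in monomer and 30.8 ± 0.85% in homodimer samples.

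The ratio of Id3 to Id1 within a library, which does not depend on the scaling of that library, set parental apart from the others. It was 1.24 ± 0.088 in parental, 0.71 ± 0.020 in uninduced, 0.60 ± 0.028 in monomer and 0.92 ± 0.040 in homodimer samples. With an E-protein partner it was 0.75 ± 0.045 in the TCF3-labelled, 0.59 ± 0.027 in the TCF4 dimer and 0.60 ± 0.007 in the TCF12-labelled group (SD, n = 3). The 3 TCF12-labelled samples ran from 0.588 to 0.602 in this ratio although their Id1 levels ran from 311 to 1060.3 CPM. Their ratio of Id2 to Id1 was less even, from 0.344 to 0.608.

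E-proteins are the partners that Id proteins bind, so the Id sum was set beside the sum of Tcf3, Tcf4 and Tcf12 on the per-kilobase scale. The E-protein sum was 47.4 ± 1.28 CPM per kb in parental and stayed between 43.6 and 51.4 in the other group means except the TCF4 dimer, where it was 61.9 ± 0.32. The ratio of the Id sum to the E-protein sum was 1.29 ± 0.033 in parental, 1.18 ± 0.094 in uninduced, 2.43 ± 0.071 in monomer and 3.23 ± 0.16 in homodimer samples. It was 5.70 ± 0.70 with the TCF4 dimer, 10.8 ± 2.04 in the TCF3-labelled and 16.2 ± 9.96 in the TCF12-labelled group, or 10.5 there without sample 1. The ratio was above parental in all 15 induced samples. These are transcript levels, which do not measure protein, and reads from an integrated construct cannot be told apart from those of the endogenous gene in these tables. Tcf4 was at 12.1 ± 0.82 CPM per kb with the TCF4 dimer against 1.74 ± 0.27 in parental. Tcf3 was at 38.2 ± 1.12 in the TCF3-labelled group against 41.4 ± 1.47, and Tcf12 at 5.99 ± 2.24 in the TCF12-labelled group against 4.26 ± 0.20. The E-protein sums of these 3 groups therefore do not show their partner alike.

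**Figure D4:**
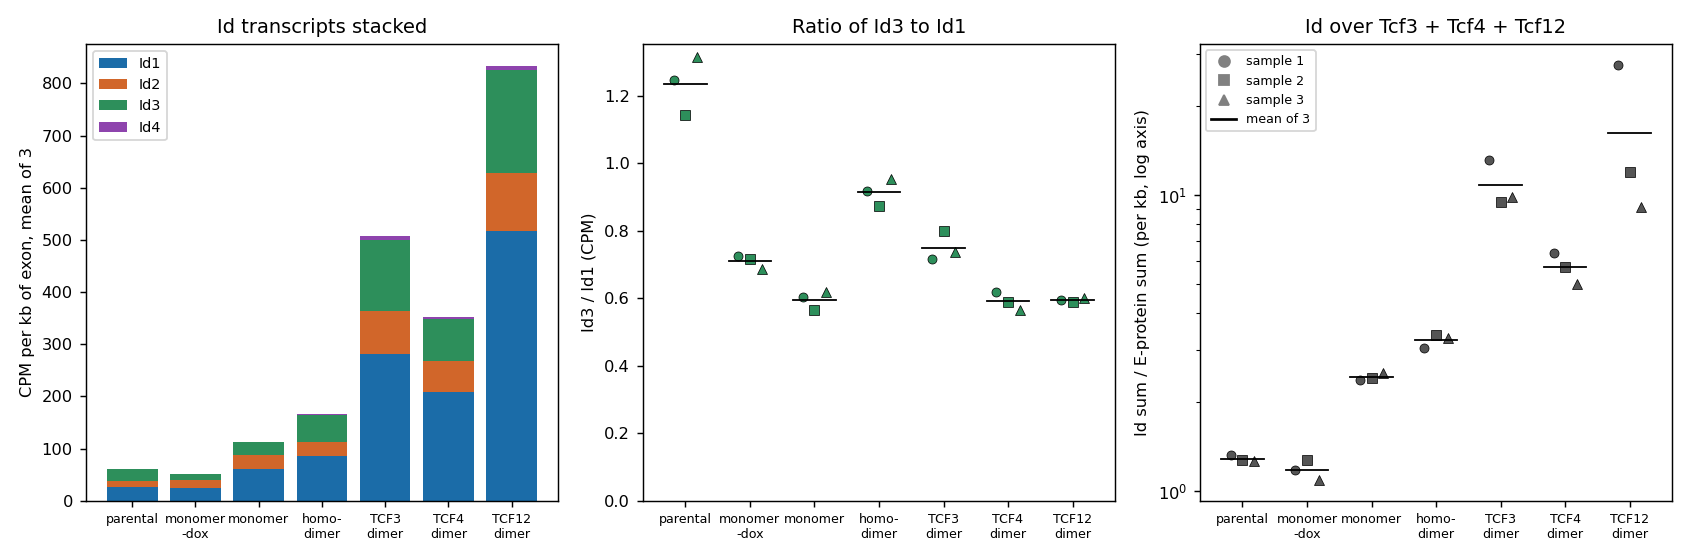
Left, mean CPM per kb of exon of the 4 Id genes, stacked; middle, the ratio of Id3 to Id1 in each library; right, the Id sum over the sum of Tcf3, Tcf4 and Tcf12 per kb in each library (log axis). The ratio of Id3 to Id1 is highest in parental, at 1.24, and the Id sum over the E-protein sum averages 10.8 in the TCF3-labelled and 16.2 in the TCF12-labelled group, the latter 10.5 without its sample 1.

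Within some groups the Id genes also shared the order of their samples. In the uninduced, TCF3-labelled, TCF4 dimer and TCF12-labelled groups the 3 samples had the same order for all 4 genes, with sample 1 highest in the latter 3. In the TCF12-labelled group sample 1 is the library that deviated by exonic length. Uninduced sample 3, the lowest of its group for all 4 genes, had a Spearman's rho of 0.281 between deviation and exonic length. How many other genes shared such an order was not counted. In parental, monomer and homodimer samples the order of Id4 differed from that of Id1. The order of Id3 also differed from that of Id1 in parental and homodimer samples. Over the 21 libraries, on the log2 scale of CPM + 0.5, Pearson's r was 0.989 between Id1 and Id2, 0.974 between Id1 and Id3 and 0.960 between Id1 and Id4. These points share the 7 groups, whose means differ, so the correlation is a description of the group pattern.

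The ranking covered 10609 genes whose mean over all libraries reached 5 CPM. The genes most like Id1 were Id2, Rftn2 (r = 0.978) and Prrx2 (r = 0.978). For Id2 they were Id1, Pja1 (r = 0.973) and Emilin1 (r = 0.973), and for Id3 they were Id1, Prrx2 (r = 0.973) and Anxa6 (r = 0.971). For Id4 they were Rftn2 (r = 0.979), Dnm1 (r = 0.977) and Bmp7 (r = 0.976). Prrx2 encodes a mesenchymal homeobox factor and Emilin1 an extracellular matrix glycoprotein. Rftn2 was at 0.489 CPM in parental and at 13.4 and 8.58 CPM in the TCF3-labelled and TCF4 dimer groups. Of the BMP pathway genes, Smad5 had an r of 0.948 with Id1, Nbl1 an r of 0.938 and Bmp7 an r of 0.929. Ski and Skil, which encode SMAD co-repressors, had an r of -0.687 and -0.65. Other inhibitors went both ways, with an r of 0.859 for Smad6, -0.458 for Smad7 and -0.718 for Cer1. For Smad1, Bmpr1a and Smad4 it was 0.453, 0.317 and 0.0108. Without sample 1 of the TCF12-labelled group these values were 0.466, 0.752 and 0.308.

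The BMP pathway was described by lists of its ligands, receptors, SMADs, inhibitors and further target genes, whose counts stand against the shares of all tested genes called. Against parental 16.3% of these were higher and 12% lower in the TCF3-labelled group, 7.18% and 5.67% with the TCF4 dimer and 15.5% and 11.5% in the TCF12-labelled group. With the homodimer 4.81% were higher and 4.02% lower, in the monomer 10.8% and 9.22%, and in the uninduced line 10.5% and 9.43%. Of 7 BMP ligands tested, 3 were higher than parental in the TCF3-labelled group and none was lower, 2 were higher and 1 lower with the TCF4 dimer, and 2 were higher in the TCF12-labelled group. With the homodimer 1 was lower and none was higher, and 3 were higher in the monomer line both before and after induction. Bmp7 was at 3.05, 3.90 and 3.73 CPM in parental. It was at 48.6, 35.3 and 35.7 CPM in the TCF3-labelled, in the TCF4 dimer samples at 19.98, 19.9 and 18.6 CPM, and at 42.4, 33.3 and 23.2 CPM in the TCF12-labelled samples. Bmp7 was called higher in these 3 groups and not with the monomer or the homodimer (adjusted p = 0.205 and 0.112 in edgeR's test).

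Bmp4, the main BMP ligand of the early embryo, was called higher than parental in every group except the homodimer. It averaged 4.47 CPM in parental, 10.0 CPM in uninduced and 9.95 CPM in induced monomer samples, 6.88 CPM with the homodimer, 18.6 CPM in the TCF3-labelled, 11.8 CPM in the TCF12-labelled and 8.08 CPM in the TCF4 dimer group. In the uninduced monomer line Bmp4 was called higher than parental (adjusted p = 0.000535 in edgeR's test) and no Id gene was. The part of the BMP pathway genes in the Id levels was not tested. Of 6 receptors tested, none was called higher than parental in any of the 6 groups, 2 were lower in the uninduced line and 1 each in the monomer, TCF3-labelled and TCF12-labelled groups. Bmpr1a averaged between 111 and 138 CPM in all 7 groups.

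The receptor-activated Smad5 was higher than parental in all 5 induced groups and not in the uninduced line. It was at 46.8, 48.1 and 51.1 CPM in parental and at 36.4, 45.2 and 46.4 CPM in uninduced samples. The monomer samples were at 103, 94.7 and 104 CPM and the homodimer samples at 103, 96.1 and 104 CPM. The TCF3-labelled samples were at 326, 244 and 269 CPM, the TCF4 dimer samples at 207, 199.9 and 164 CPM and the TCF12-labelled samples at 212, 281 and 241 CPM. The log2 fold changes against parental were 1.05 ± 0.12 with the monomer, 1.05 ± 0.12 with the homodimer and 1.97 ± 0.12 with the TCF4 dimer, each passing. Within the monomer line Smad5 was higher with doxycycline by 1.23 ± 0.13 on the log2 scale (adjusted p = 5.72e-06 in edgeR's test). In the TCF12-labelled group sample 1 had the lowest Smad5 of the 3, while it had the highest level of all 4 Id genes. This is the library that deviated by exonic length. Its genes of 1 to 2 kb had a median deviation of 0.696 and those over 8 kb of -0.655 on the log2 scale. The part of that deviation in this contrast was not tested.

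Smad9, another receptor-activated SMAD, averaged 0.315 CPM in parental, 3.35 CPM in the TCF3-labelled group, 1.50 CPM with the TCF4 dimer and 3.36 CPM in the TCF12-labelled group, and it was called higher in these 3. With so few counts elsewhere it entered the test through the groups where it is high, so that it had to differ. Smad1 was called lower in the TCF3-labelled group (32.7 against 41.2 CPM), the uninduced line (23.7 CPM) and the induced monomer (25.9 CPM). Smad4, the common partner, did not pass against parental in any group.

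The 2 inhibitory SMADs moved in opposite directions in the groups with an E-protein partner. Smad6 was at 2.83, 1.84 and 1.92 CPM in parental, at 14.2, 6.71 and 9.11 CPM in the TCF3-labelled and at 5.74, 5.39 and 3.83 CPM in the TCF4 dimer samples. It was at 13.96, 11.2 and 7.59 CPM in the TCF12-labelled samples and was called higher in these 3 groups. With the monomer Smad6 was called lower, at 0.781 CPM. Smad7 averaged 74.2 CPM in parental and was called lower in all 6 other groups, to 44.1 CPM in the TCF3-labelled group. Of the 7 intracellular and membrane inhibitors tested, 1 was higher and 1 lower in the TCF3-labelled and TCF4 dimer groups, and 2 were higher and 2 lower in the TCF12-labelled group. None was higher with the homodimer, in the monomer or in the uninduced line, where 1, 2 and 1 were lower.

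Extracellular antagonists also moved both ways. Fst, which encodes follistatin, was at 87.3, 112 and 104 CPM in parental and averaged between 5.10 and 11.8 CPM in every other group, the uninduced line included. Cer1, which encodes a BMP and Nodal antagonist, was called lower than parental in all 6 groups. Nbl1, which encodes a further antagonist, averaged 2.12 CPM in parental, 12.4 CPM with the homodimer and 15.8 CPM in both the TCF3-labelled and TCF4 dimer groups, all called higher. Of 8 antagonists tested, 3 were higher and 3 lower in the TCF3-labelled group, and 1 was higher and 3 were lower with the homodimer, the TCF4 dimer and in the TCF12-labelled group. In the uninduced line 3 were higher and 2 lower, and in the monomer 3 and 3.

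Further BMP target genes were described in the same way, but Atoh8, Dlx3 and Gata3 were at 0.319, 0.60 and 0.497 CPM in parental, near the level of 3 counts. Of 6 tested, 3 were called higher than parental in the TCF3-labelled group (Atoh8, Gata2 and Msx2), 1 was higher and 1 lower with the TCF4 dimer (Dlx3 and Msx2), and 4 were higher in the TCF12-labelled group. With the homodimer none was higher and 2 were lower, Msx2 and Msx1. None was higher in the uninduced line, where 2 were lower, or in the monomer, where 1 was lower. Any of these genes that passed the filter on low counts only through a group where it is high had to differ there. Gata2 averaged 1.45 CPM in parental, 4.37 CPM in the TCF3-labelled and 6.63 CPM in the TCF12-labelled group.

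**Figure D5:**
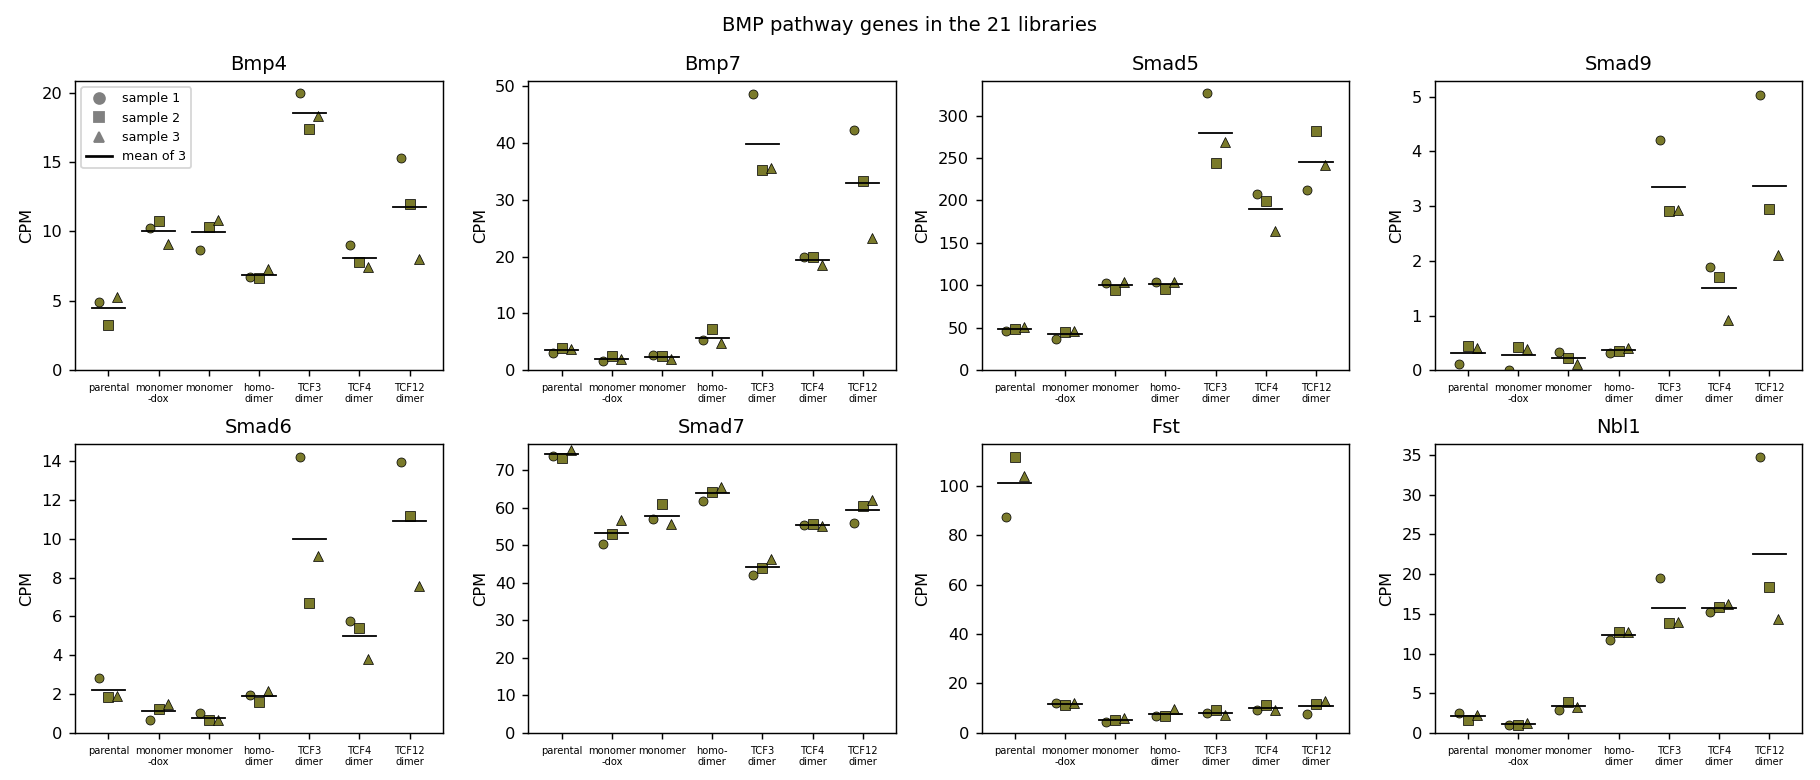
CPM of 8 BMP pathway genes in each of the 21 libraries (linear axes from 0), with a line at the mean of each group of 3. Smad5 is higher than parental in all 5 induced groups, Bmp7, Smad9 and Smad6 are so in the 3 groups with an E-protein partner, and Fst is high in parental alone.

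Markers of cell types that embryoid bodies can hold moved with the groups as well. The 7 lateral and extraembryonic mesoderm markers summed to between 13.5 and 15.5 CPM in parental, 10.3 and 11.01 in homodimer, 21.2 and 28.5 in TCF4 dimer, 38.98 and 46.7 in TCF12-labelled and 60.7 and 74.9 in TCF3-labelled samples. They also summed to between 45.2 and 56.2 CPM in uninduced samples, where no Id gene was higher and Hand2 was at 0, and to between 46.2 and 49.98 CPM in monomer samples. Of 6 tested, Pdgfra was the 1 called higher in the uninduced line, where 10.5% of tested genes were. It averaged 9.38 CPM in parental and 43.9 CPM in uninduced samples, which was most of the sum there. In the monomer 1 of the 6 was called higher (10.8% of tested genes). The median log2 fold change of the 6 against parental was -0.131 in the uninduced line and -0.226 in the monomer. In the TCF3-labelled group 4 were higher (16.3% of tested genes), with the TCF4 dimer 3 (7.18%) and in the TCF12-labelled group 5 (15.5%). Any marker that passed the filter on low counts only through a group where it is high had to differ there. The 6 blood and endothelial markers summed to between 23.4 and 25.5 CPM in parental, 29.1 and 29.8 in uninduced, 97.7 and 101 in monomer and 127 and 134 in homodimer samples. They summed to between 74.0 and 81.2 CPM in TCF4 dimer, 144 and 185 in TCF3-labelled and 149 and 195 in TCF12-labelled samples. Cd34 led this sum, at 5.13 CPM in parental and 75.4 CPM in monomer samples.

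The 7 primitive endoderm markers summed to between 538 and 552 CPM in parental and to between 1924 and 2175 CPM in uninduced and 1857 and 2017 CPM in monomer samples. They lay between 312 and 451 CPM in the homodimer, TCF4 dimer and TCF12-labelled samples, and between 1243 and 1496 CPM in the TCF3-labelled samples. The 6 primitive streak markers summed to between 174 and 208 CPM in parental and to between 14.8 and 37.5 CPM in all other samples, with Mesp1 at 0 in the homodimer group. The 8 pluripotency markers summed to between 1102 and 1152 CPM in parental, 797 and 936 in TCF3-labelled, 868 and 925 in TCF4 dimer and 811 and 1048 in TCF12-labelled samples, and to between 1091 and 1291 in the other groups. Of these markers 7 were called lower than parental with the TCF4 dimer and 6 in the TCF12-labelled group, and none was higher in either. In the TCF3-labelled group 3 were higher and 3 lower, with the homodimer 3 and 1, in the monomer 5 and 2 and in the uninduced line 5 and 1. Over all tested genes 7.18% were higher and 5.67% lower with the TCF4 dimer, and 15.5% and 11.5% in the TCF12-labelled group. These shares were 16.3% and 12% in the TCF3-labelled group and 4.81% and 4.02% with the homodimer. They were 10.8% and 9.22% in the monomer and 10.5% and 9.43% in the uninduced line. Nanog averaged 210 CPM in parental and between 56.4 and 91.3 CPM in the other groups. The 4 epiblast markers summed to between 3063 and 3161 CPM in parental, 1318 and 1464 in TCF3-labelled and 1214 and 2075 in TCF12-labelled samples, and to between 2012 and 2779 in the other groups. Of these markers 3 were lower in the homodimer, TCF3-labelled and TCF12-labelled groups, 2 in the monomer and TCF4 dimer groups and 1 in the uninduced line, and 1 was higher in the TCF12-labelled, monomer and uninduced groups. The part of these cell types in the Id levels was not tested.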

How the data were processed

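Gene counts of 21 embryoid body libraries were used. Per the labels' protocols, RNA of frozen samples was turned into libraries with the TruSeq mRNA kit. Per the submitters' processing notes, FastQC, TopHat2 and HTSeq were used with GRCm38 (mm10). The annotation and strand setting are not given in the sources used here. The deposited values are raw counts per symbol, 1 table of 48321 symbols per sample. In 18 of the tables, 25 symbols had been turned into dates, and the 3 tables of the TCF12-labelled libraries keep them, so tables were joined by position.

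All 21 samples entered 1 fit of edgeR 4.0.16 (quasi-likelihood F-test, limma 3.58.1, R 4.3.3) with 1 mean per group, TMM factors and filterByExpr (count of 10, total of 15), and 14311 genes remained. Benjamini-Hochberg adjustment ran over all of them, and an adjusted p under 0.05 was called. Standard errors come from the F statistic. CPM uses TMM-scaled library sizes, and CPM per kb divides by the exonic length of GENCODE M21, matched by symbol. The script was tested on simulated data. Promoter windows and motifs were read with Python 3.11.15 (pandas 2.3.3, scipy 1.17.1), and figures drawn with matplotlib 3.10.9.

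The members and gene lists were chosen with earlier results of these data known. The rule named the 4 Id genes, the 3 genes of each list with the largest change among those passing in a comparison, Twist1, Tcf3, Tcf4, Tcf12 and Bmp4, and the 3 genes most like each Id gene. Pathway genes named without passing, and Smad4, Bmpr1a, Nbl1, Ski, Skil, Gata3, Pdgfra, Nanog, Pou5f1 and the markers at 0, were chosen after their values were seen, as were the tests between all pairs of groups. Alternatives were DESeq2 1.42.0, RLE factors, library size alone, other filters, a fit of the groups compared, the replicate block, the uninduced control and leaving out each library.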

Additional observations from a re-analysis of the deposited data

How the results depend on the processing

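All 4 Id genes were called higher under all settings run for the TCF3-labelled, TCF4 dimer and TCF12-labelled groups against parental and against the monomer, and for these 3 groups together against the homodimer. Leaving out each library in turn gave 3 to 4 Id genes called for homodimer against parental, 2 to 3 for homodimer against monomer, 0 to 1 for uninduced against parental and 0 to 3 for monomer against uninduced. It gave 1 to 4 for TCF3-labelled against TCF4 dimer, 0 to 4 for TCF12-labelled against TCF4 dimer and 0 to 3 for TCF3-labelled against TCF12-labelled. With only the groups compared in the fit, 2 Id genes were called for uninduced against parental, 3 for monomer against uninduced, 3 for homodimer against monomer, 4 for TCF3-labelled against TCF4 dimer, and 0 for the other comparisons among groups with an E-protein partner. For TCF3-labelled against TCF4 dimer 3 were called with library size alone, 3 without a filter, 3 with the replicate block and 2 with DESeq2, and without a filter 3 were called for TCF3-labelled against TCF12-labelled. Samples with the same replicate number were not alike on average. Their deviations had a mean correlation of 0.0214 over 63 pairs (from -0.221 to 0.344), against -0.0102 over 126 pairs with other numbers. The block changed no other count of Id genes. The cause of these changes was not tested.

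Over single Id genes 1610 alternative values kept their direction and side of the threshold, 44 lost a call, 29 gained one and 17 changed sign. The Id2 difference between homodimer and monomer became 0.0358 with library size alone, 0.0059 without a filter and 0.0015 with the replicate block. Leaving out each library in turn gave -0.038 to 0.043 for it, -0.34 to 0.022 for Id4 in uninduced against parental and -0.039 to 0.32 for Id4 in monomer against parental. For TCF3-labelled against TCF12-labelled it gave -0.83 to 0.15 for Id3 and -0.16 to 0.33 for Id4.

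Over all genes the counts called also moved. With the uninduced line as the control they were 286 for monomer, 3259 for homodimer and 4620 for TCF4 dimer in place of 2861, 1265 and 1839. Without sample 1 of the TCF12-labelled group 5312 genes were called for uninduced against parental in place of 2854, 2948 in place of 1265 for homodimer against parental, 890 in place of 286 for monomer against uninduced, and 5828 in place of 2819 for TCF3-labelled against TCF4 dimer. It likewise gave 5073 (2861) for monomer, 6700 (4057) for TCF3-labelled and 4046 (1839) for TCF4 dimer against parental, 4803 (2642) for homodimer, 5896 (3162) for TCF3-labelled and 6561 (3928) for TCF4 dimer against monomer, and 4173 (2007) for the 3 partners against homodimer, with the count of the full fit in parentheses. With only the groups compared the count was 824 (3864) for TCF12-labelled against parental, 1516 (4799) for it against monomer, 1310 (2007) for the 3 partners against homodimer, 236 (2686) for TCF3-labelled against TCF12-labelled and 0 (464) for TCF12-labelled against TCF4 dimer, and 682 to 6674 where that fit held no TCF12-labelled library. For TCF12-labelled against TCF4 dimer it was 306 with library size alone, 1443 without a filter, 901 with DESeq2 and 49 to 4868 with 1 library left out. With library size alone 41.4% of calls were higher for uninduced against parental in place of 52.7%, 69.6% in place of 57.6% for TCF3-labelled against monomer, and 67.7% in place of 51.7% for TCF3-labelled against TCF12-labelled.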

Other observations

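Id proteins also act on the cell cycle and on other tissue-specific helix-loop-helix factors, and both lists were described here. Of 5 CDK inhibitors tested, which hold cyclin-dependent kinases inactive, 1 was higher and 1 lower than parental in the TCF3-labelled group (Cdkn1a at 55.5 against 41.6 CPM, Cdkn1c at 10.5 against 16.9 CPM). With the TCF4 dimer 1 was higher, Cdkn1b at 77.6 against 58.2 CPM, and with the homodimer 1 was lower, Cdkn1a at 27.8 CPM. In the TCF12-labelled group 2 were higher, Cdkn2a at 8.97 against 4.40 CPM and Cdkn1b at 71.3 CPM. Their median log2 fold change lay between 0.0558 and 0.497 over the 6 comparisons with parental. In the monomer and uninduced samples 1 each was higher. Over all tested genes 16.3% were called higher in the TCF3-labelled, 7.18% in the TCF4 dimer and 15.5% in the TCF12-labelled group, and 4.81% with the homodimer. In the monomer 10.8% and in the uninduced line 10.5% were called higher. The shares called lower were 12% in the TCF3-labelled group and 4.02% with the homodimer.

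Of 25 tissue-specific helix-loop-helix genes listed, 9 passed the filter on low counts, so those that passed through a group where they are high had to differ. Against parental 7 of these were higher and 1 was lower in the TCF3-labelled group (16.3% and 12% of tested genes). With the TCF4 dimer 5 were higher (7.18% of tested genes) and in the TCF12-labelled group 6 (15.5%). With the homodimer 1 was higher (4.81% of tested genes), in the monomer 2 (10.8%) and in the uninduced line 1 (10.5%). Bhlhe22 averaged 0.772 CPM in parental, 1.34 CPM with the homodimer, 16.3 CPM in the TCF3-labelled group, 5.87 CPM with the TCF4 dimer and 16.4 CPM in the TCF12-labelled group. Hand1, a factor of lateral and extraembryonic mesoderm, averaged 0.357, 0.132, 4.47, 2.65 and 10.6 CPM in the same order of groups.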
